A study of Mus musculus with 24 samples.

Results

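The 8 genes described here encode titin (Ttn), nebulin (Neb), the myomesins (Myom1, Myom2 and Myom3), the skeletal myosin-binding proteins C (Mybpc1, slow type, and Mybpc2, fast type) and myosin-binding protein H (Mybph). They are the giant rulers of the sarcomere, the crosslinkers of its thick filaments and proteins that bind along those filaments. They were taken by name from a list of 8 genes out of 19351 genes measured. Each had 1 probe set on the array. RNA of C57BL/6J mouse embryos was measured on Affymetrix arrays, 24 in all, in 3 groups of 8 arrays, after tissue had been cut from cryosections by laser capture and its cDNA amplified. The groups are pleuroperitoneal fold at E11.5, pleuroperitoneal fold at E12.5 and the muscularised diaphragm at E16.5, and the labels name no mutant allele and no agent in any of them. The folds are the paired ridges from which the diaphragm is built, and muscle progenitors migrate into them. The folds were cut from transverse sections and the E16.5 diaphragm from sagittal ones. The labels do not say which embryo an array came from, so p-values measure the spread between these samples, and they would be too small if some share an animal.

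In a sarcomere, actin filaments are anchored at the Z-disc and myosin filaments are joined at the M-band in the middle. Titin is a spring and scaffold that runs from the Z-disc to the M-band, and nebulin lies along the actin filament and sets its length. Myomesins crosslink myosin filaments and the ends of titin at the M-band: myomesin 1 is found in all striated muscle, M-protein (Myom2) mainly in fast fibres and adult heart, and myomesin 3 in fibres of intermediate speed. Myosin-binding proteins C and H sit in stripes on the thick filament to either side of the M-band. In skeletal muscle these genes are switched on when myoblasts leave the cell cycle and differentiate, downstream of the MyoD family and of Mef2 factors.

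On GRCm38, the annotation gives Ttn at chr2:76703980-76982557, Neb at chr2:52136640-52338798, Myom1 at chr17:71003332-71126856 and Myom2 at chr8:15057653-15133420. Myom3 lies at chr4:135758800-135815571, Mybpc1 at chr10:88518279-88605229, Mybpc2 at chr7:44501699-44524715 and Mybph at chr1:134193418-134201237. Ttn spans 278578 bp of the genome and Neb 202159 bp, and Mybph, the shortest of the 8, spans 7820 bp.

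RefSeq start-site windows, 250 bases before to 50 after a start, were found for 6 of the 8 genes, all but Neb and Myom2. The windows of a pair of myomesins and of the pair of myosin-binding proteins C are shown, because later results turn on how members of a pair moved relative to each other. They are given 5′ to 3′ on the gene's strand, which is plus for the myomesins and minus for the C proteins. Capitals mark E-boxes (CANNTG, the element bound by MyoD family factors), M-CAT elements (CATTCC, bound by Tead factors), TATAAA and MEF2 sites, each sought on both strands. The Myom1 window, chr17:71019307-71019606, and the Myom3 window, chr4:135759465-135759764, belong to starts inside the annotated genes. The Mybpc1 window is chr10:88605103-88605402 and the Mybpc2 window chr7:44524620-44524919.
Myom1: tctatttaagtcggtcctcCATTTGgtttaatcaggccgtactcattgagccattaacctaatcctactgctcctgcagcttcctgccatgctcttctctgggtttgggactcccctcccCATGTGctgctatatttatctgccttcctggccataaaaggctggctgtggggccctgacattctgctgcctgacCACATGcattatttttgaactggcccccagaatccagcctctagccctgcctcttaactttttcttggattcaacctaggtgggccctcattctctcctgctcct
Myom3: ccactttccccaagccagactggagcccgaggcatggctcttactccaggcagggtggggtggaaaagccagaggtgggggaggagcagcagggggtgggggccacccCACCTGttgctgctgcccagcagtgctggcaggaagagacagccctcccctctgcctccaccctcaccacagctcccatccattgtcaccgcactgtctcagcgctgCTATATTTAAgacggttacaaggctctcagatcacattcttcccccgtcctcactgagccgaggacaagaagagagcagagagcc
Mybpc1: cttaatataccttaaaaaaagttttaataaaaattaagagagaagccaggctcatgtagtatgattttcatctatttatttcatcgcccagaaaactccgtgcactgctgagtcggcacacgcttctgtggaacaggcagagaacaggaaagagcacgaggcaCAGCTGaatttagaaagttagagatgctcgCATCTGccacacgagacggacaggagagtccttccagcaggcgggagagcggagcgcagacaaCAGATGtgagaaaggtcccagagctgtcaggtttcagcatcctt
Mybpc2: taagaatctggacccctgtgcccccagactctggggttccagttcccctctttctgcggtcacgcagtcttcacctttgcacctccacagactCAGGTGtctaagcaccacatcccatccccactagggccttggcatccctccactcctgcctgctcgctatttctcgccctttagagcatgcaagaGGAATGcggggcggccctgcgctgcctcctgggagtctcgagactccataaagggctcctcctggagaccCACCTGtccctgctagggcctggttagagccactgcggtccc
An E-box was present in 6 of the 6 windows, but also in 72.3% of all 32851 start-site windows of the same length, so its presence says little here. The CAGCTG form, a part of the E-box matches, was found in 2 of the 6 windows (Mybpc1 and Mybph) and in 16.3% of all windows. An M-CAT element was found in 3 windows (Ttn, Mybpc2 and Mybph) against 14.7% of all, and in Mybph it lies next to the CAGCTG at position -79 from the start. A MEF2 site was found in 2 windows against 3.19% of all: in Ttn, where it begins at position -166 from the start, and in Myom3, where it begins at position -35. TATAAA, in 13.6% of all windows, matched in 1 of the 6, Mybph, on the strand opposite to the gene. These are matches of letters in 1 window per gene and show no binding.

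Values are the deposited log2 intensities, named log2 values from here on. Levels of different genes are not comparable on this scale. Changes of different genes are set side by side below. Whether equal log2 changes stand for equal changes of RNA, near background or at high signal, was not tested. A level below an array's lower quartile over genes, which lay between 6.40 and 6.64, is not told from background. Most members lay above it. Mybpc2 lay below it in 5 of 8 arrays at E11.5 and in 7 of 8 at E12.5. Myom1 and Myom2 lay below it in 1 array each at E11.5, where the Myom2 mean of 6.84 was little above it. No member was among the 20 brightest genes of any array. The tissue labels can be set against a list of 14 measured skeletal muscle markers, whose mean log2 value per array was 7.94 to 8.46 at E11.5, 8.0 to 9.92 at E12.5 and 10.44 to 10.92 at E16.5. In such bulk samples, more muscle cells and more RNA per muscle cell cannot be told apart.

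**Figure D1:**
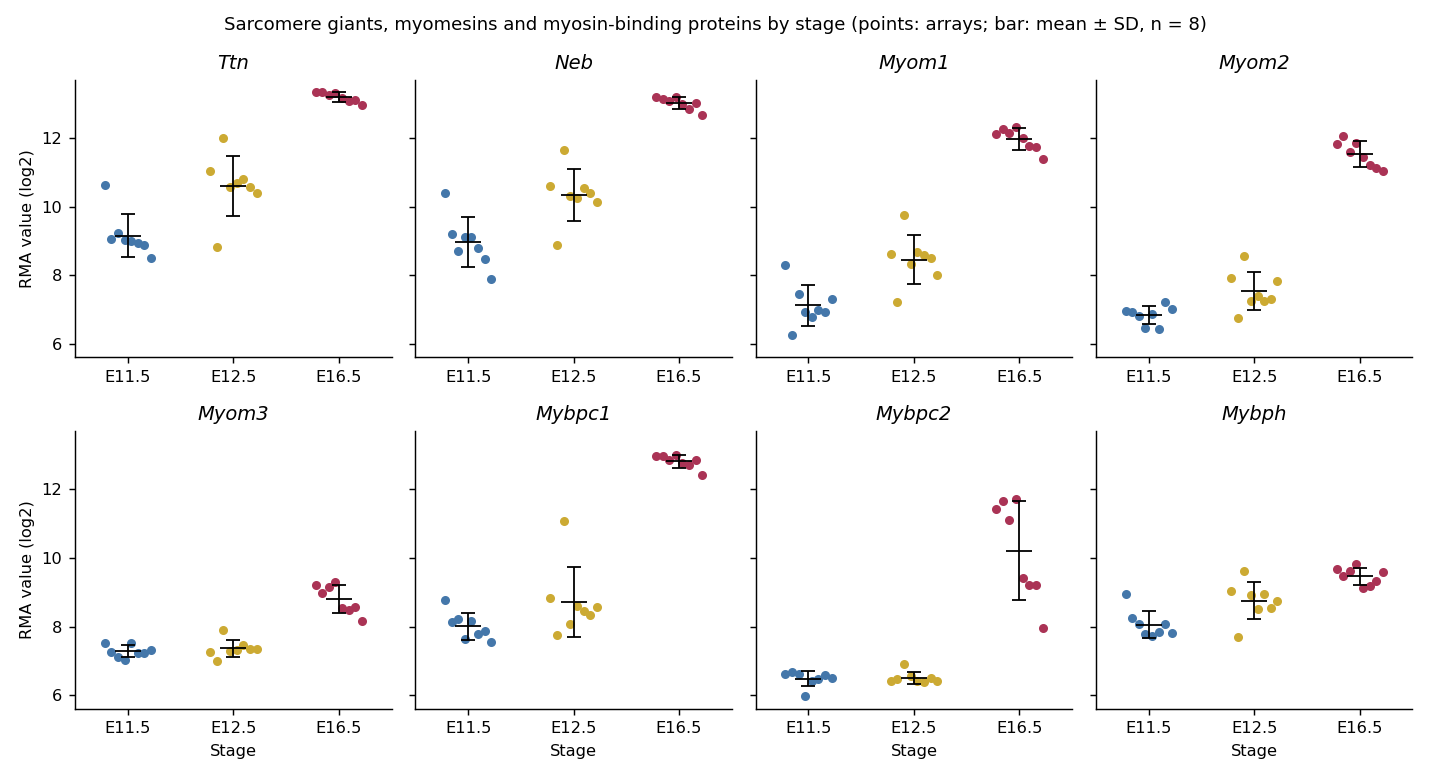
RMA log2 value (y axis) of each of the 8 genes at E11.5, E12.5 and E16.5 (x axis); points are arrays in the order of their replicate number, bars the mean ± SD of 8 arrays. Every E16.5 array lies above every E11.5 array for all 8 genes, while the E12.5 means of Myom3 and Mybpc2 lie 0.09 and 0.03 above those of E11.5.

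Titin and nebulin were already well above background in the folds at E11.5 and climbed at both steps. Ttn ran from a lowest value of 8.50 over a median of 9.02 to a highest of 10.62 at E11.5. At E12.5 its lowest, median and highest values were 8.82, 10.62 and 12, and at E16.5 they were 12.97, 13.21 and 13.33. The E11.5 and E12.5 arrays overlapped, E11.5 replicate 1 being the highest of its stage and E12.5 replicate 2 the lowest of its own, while the E16.5 arrays stood above both. Neb lay at 7.88, 8.95 and 10.40 at E11.5, at 8.89, 10.35 and 11.64 at E12.5 and at 12.67, 13.05 and 13.21 at E16.5. Its highest and lowest arrays were those of Ttn at all 3 stages, and its E16.5 arrays too stood above the folds. The spread was smallest at the last stage: the SD of Ttn was 0.63 over the E11.5 arrays, 0.88 over those of E12.5 and 0.13 over those of E16.5.

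The 3 myomesins followed unlike courses. Myom1, the general M-band crosslinker, lay at 6.25, 6.96 and 8.31 (lowest, median, highest) at E11.5 and at 7.21, 8.53 and 9.77 at E12.5. At E16.5 it lay at 11.40, 12.07 and 12.31, with no overlap with either fold stage. Myom2, the M-protein, was at 6.42, 6.90 and 7.23 at E11.5 and at 6.76, 7.35 and 8.55 at E12.5, and at E16.5 it reached 11.03, 11.52 and 12.06. The fold stages overlapped, and every E16.5 array was above them. Myom3 lay at 7.03, 7.25 and 7.52 at E11.5 and at 7.0, 7.32 and 7.91 at E12.5, and these stages overlapped almost wholly. Its E16.5 values of 8.17, 8.78 and 9.31 were above both fold stages.

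The myosin-binding proteins differed in their distance from background and in how widely they spread. Mybpc1, the slow C isoform, lay at 7.54, 8.0 and 8.77 at E11.5 and at 7.76, 8.52 and 11.09 at E12.5, where E12.5 replicate 3 was the high array. At E16.5 it was at 12.41, 12.85 and 12.99. Mybpc2, the fast isoform, was at 5.97, 6.54 and 6.67 at E11.5 and at 6.38, 6.45 and 6.92 at E12.5, at or under the background level in most arrays. At E16.5 it ranged from 7.95 over 10.26 to 11.73, with an SD of 1.43, the widest of the 8 genes at any of the 3 stages. Its E16.5 arrays none the less lay above every fold array. Mybph, whose product is a shorter relative of the C proteins, lay at 7.73, 7.95 and 8.94 at E11.5, at 7.70, 8.84 and 9.62 at E12.5 and at 9.12, 9.52 and 9.82 at E16.5. It was the only member whose E16.5 arrays overlapped those of E12.5.

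From E11.5 to E12.5, 1 day apart, Ttn, Neb and Myom1 rose, by 2.74-fold, 2.61-fold and 2.53-fold. Their log2 changes were 1.45 ± 0.29 (SE, n = 8 arrays per stage; adjusted p = 0.0285), 1.38 ± 0.29 (adjusted p = 0.0357) and 1.34 ± 0.27 (adjusted p = 0.0257) in a limma fit over all genes, with Benjamini-Hochberg adjustment and a threshold of 0.05. They ranked 27, 31 and 33 of 19351 genes by the size of the rise. Thus 3 of 8 members were called higher and 0 lower, against 0.331% of all genes called higher and 0.0568% called lower, and 6 of 8 were higher at an unadjusted p under 0.05, against 6.27% of all genes. Myom2 (0.69 ± 0.20, adjusted p = 0.130), Mybph (0.70 ± 0.20, adjusted p = 0.130) and Mybpc1 (0.70 ± 0.30, adjusted p = 0.291) had positive changes that did not pass. Myom3 (0.09 ± 0.14) and Mybpc2 (0.03 ± 0.39) had changes smaller than their errors. The errors of this fit pool the spread within every stage, E16.5 included. The SD of Mybpc2 was 1.43 at E16.5, against 0.22 at E11.5 and 0.18 at E12.5. Its error of 0.39 is therefore not a measure of the spread in the folds alone. The median change of the 8 was 0.70, against -0.03 over all genes. None of the 8 had all E12.5 arrays above all E11.5 arrays, as 0.093% of all genes did.

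These first-day calls depended on the fit and on single arrays. With E16.5 left out of the fit, 0 of 8 members were called, with adjusted p of 0.127 for Ttn, 0.128 for Neb and 0.121 for Myom1. An unmoderated unequal-variance test also called 0. The main fit pools the spread of all stages, and these genes spread least at E16.5. The SD at E11.5, E12.5 and E16.5 was 0.63, 0.88 and 0.13 for Ttn and 0.72, 0.75 and 0.18 for Neb. For Myom1 it was 0.60, 0.72 and 0.31. The part of this in the lost calls was not tested. Leaving out single arrays gave 0 calls without E11.5 replicate 5 or 7 or E12.5 replicate 1 or 6, and 1 without E11.5 replicate 8 or E12.5 replicate 3 or 4. It gave 2 without E11.5 replicate 3 or E12.5 replicate 7 or 8, 4 without E11.5 replicate 1 and 5 without E12.5 replicate 2. The adjusted p never exceeded 0.0619 for Ttn, 0.0722 for Neb and 0.0575 for Myom1 in these fits. Myom2 passed without E12.5 replicate 2 (0.81, adjusted p = 0.0428), and Mybph without E12.5 replicate 2 (0.85, adjusted p = 0.0128) or E11.5 replicate 1 (0.82, adjusted p = 0.0479).

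Between E12.5 and E16.5 all 8 members were called higher and 0 lower, against 11.49% and 15.60% of all genes. Of the 7 members above the background level in every array of both stages, Mybpc1 (4.10 ± 0.30, or 17.13-fold, adjusted p = 1.19e-10) and Myom2 (3.99 ± 0.20, 15.90-fold, adjusted p = 1.57e-13) had the largest changes, which differed by less than their errors. The Myom2 mean at E12.5 was 7.53, and its lowest array there, at 6.76, lay little above that level. Mybpc2 rose by 3.71 ± 0.39 over all E16.5 arrays, by 4.97 with E16.5 replicates 1 to 4 alone and by 2.44 with replicates 5 to 8 alone. It lay below the background level in 7 of 8 E12.5 arrays, so the size of its change and its place among the members are not settled. Myom1 rose by 3.51 ± 0.27, which is 11.40-fold. Neb rose 6.39-fold (2.68 ± 0.29) and Ttn 6.01-fold (2.59 ± 0.29). Myom3 rose by 1.44 ± 0.14 and Mybph by 0.72 ± 0.20 (adjusted p = 0.00729). Of the 8, 7 had no overlap between the stages, against 4.69% of all genes. The median change of the members was 3.09, against -0.02 over all genes. The call for Mybph ended without E16.5 replicates 1 to 4 (0.54, adjusted p = 0.162).

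Over the whole interval from E11.5 to E16.5, the 8 changes ran from 1.41 to 4.85 on the log2 scale. Myom1 (4.85 ± 0.27, 28.83-fold), Mybpc1 (4.80 ± 0.30, 27.92-fold) and Myom2 (4.69 ± 0.20, 25.73-fold) came first, and Neb (4.06 ± 0.29) and Ttn (4.04 ± 0.29) next. Myom1 and Myom2 lay below the background level in 1 array each at E11.5. The Myom2 mean there, 6.84, was little above that level, so the size of the Myom2 change and its place among the members are not settled. Mybpc2 rose by 3.74 ± 0.39, by 5.0 with E16.5 replicates 1 to 4 alone and by 2.47 with replicates 5 to 8 alone, from a level near background. Myom3 (1.52 ± 0.14, 2.88-fold) and Mybph (1.41 ± 0.20, 2.66-fold) changed least. All 8 were called higher (adjusted p of 3.48e-06 or less in limma), against 13.85% of all genes called higher and 19.63% called lower, and 8 of 8 had every E16.5 array above every E11.5 array, against 5.22% of all genes. E16.5 is set against both earlier stages with the same arrays, so these comparisons are not independent of each other.

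**Figure D2:**
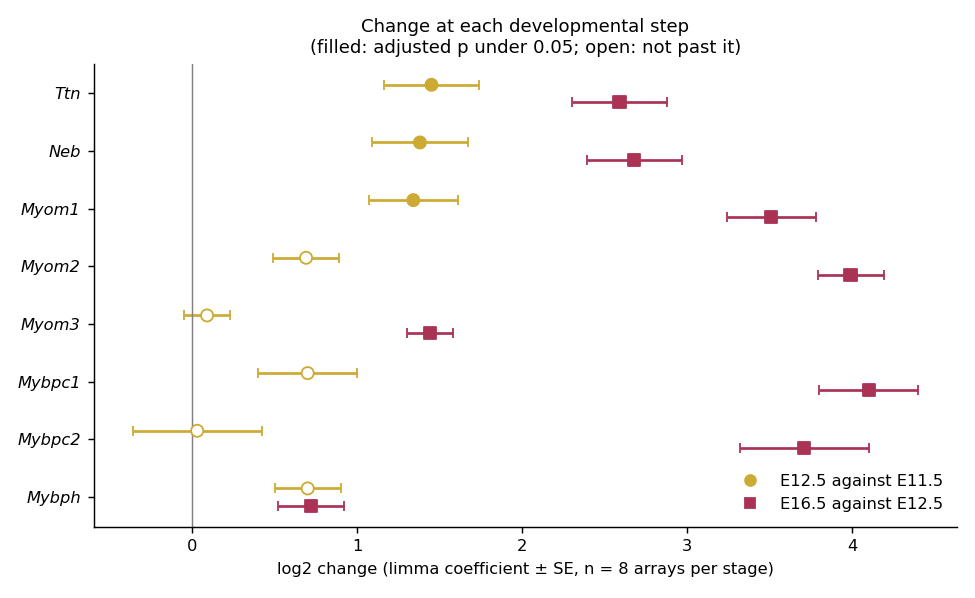
Log2 change (x axis, limma coefficient ± SE, 8 arrays per stage) of each gene at the first step (circles, E12.5 against E11.5) and at the second (squares, E16.5 against E12.5); filled symbols have an adjusted p under 0.05. Ttn, Neb and Myom1 are filled at both steps, and Mybph is the gene whose symbols for both steps lie side by side, at 0.70 and 0.72.

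Whether a gene gained more at the later step than at the first was tested as a contrast in the same limma fit, the change from E12.5 to E16.5 less the change from E11.5 to E12.5. The steps last 4 days and 1 day, and the contrast is of whole steps, not of rates. It was positive past the threshold for 5 of 8 members, against 4.52% of all genes, and negative for 0, against 6.26%. These were Mybpc1 (3.39 ± 0.52, adjusted p = 9.41e-05), Myom2 (3.30 ± 0.34, adjusted p = 6.22e-07), Myom1 (2.17 ± 0.46, adjusted p = 0.00298), Myom3 (1.35 ± 0.25, adjusted p = 0.000671) and Mybpc2 (3.68 ± 0.68, adjusted p = 0.00077). The first step of Mybpc2 was not measurable, with most fold arrays below the background level, so its contrast has no settled size. Myom2 had a mean of 6.84 at E11.5, little above that level, so a part of its first step could have been missed. Ttn (1.13 ± 0.51, adjusted p = 0.169) and Neb (1.29 ± 0.50, adjusted p = 0.102) did not pass. Both passed without E12.5 replicate 3 (1.53, adjusted p = 0.0399, and 1.66, adjusted p = 0.0233), and Neb also without E11.5 replicate 8 (1.45, adjusted p = 0.0495). Mybph had 0.02 ± 0.34. This contrast was chosen after the values had been seen.

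Related genes were next compared within arrays, by the log2 difference between them in each array, so that anything that scales a whole array cancels. Over 6 such differences and 2 steps, 12 exact permutation tests were made (two-sided, 8 arrays against 8, adjusted over the 12 by Benjamini-Hochberg); the smallest p that 8 against 8 allows is 0.000155. No change was detected in the balance of nebulin to titin. Neb minus Ttn was -0.27 ± 0.17 (SD) at E12.5 and -0.20 ± 0.30 at E11.5, a change of -0.07 (exact adjusted p = 0.613). At the second step it was -0.18 ± 0.06 at E16.5 and -0.27 ± 0.17 at E12.5, a change of 0.09 (exact adjusted p = 0.230). That second change reached an exact adjusted p of 0.0117 without E12.5 replicate 2, with a size of 0.14.

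Myom3 fell behind its relatives at both steps. Relative to Myom1 it fell by 1.25 on the log2 scale from E11.5 to E12.5 (exact permutation, adjusted p = 0.00233), with means of -1.10 ± 0.50 at E12.5 and 0.16 ± 0.57 at E11.5. From E12.5 to E16.5 it fell by a further 2.07 (exact adjusted p = 0.000622), with array differences of -3.48 to -2.92 at E16.5 that did not overlap the -1.87 to -0.21 of E12.5. Relative to Myom2 it fell by 0.61 (exact adjusted p = 0.00336) at the first step. At the second it fell by 2.55 (exact adjusted p = 0.000622), with values of -3.08 to -2.47 at E16.5 and of -0.65 to 0.24 at E12.5. The Myom3 means of 7.28 at E11.5 and 7.36 at E12.5 lay under the array medians over genes, 7.45 to 7.57. At E11.5 the means of Myom1 (7.12) and Myom2 (6.84) were lower still. The part of low signal in the first-step falls was not tested. The difference of the other pair of myomesins, Myom2 minus Myom1, changed by -0.64 at the first step (exact adjusted p = 0.0508, not past the threshold) and rose by 0.48 at the second (exact adjusted p = 0.0277). The first passed without E11.5 replicate 1 (-0.80, exact adjusted p = 0.0127), E12.5 replicate 2 (-0.71, 0.0369) or E12.5 replicate 8 (-0.76, 0.0282). The second did not pass without E12.5 replicate 3 (0.44, exact adjusted p = 0.0550), 5 (0.43, 0.0556), 6 (0.42, 0.0556) or 7 (0.44, 0.0511).

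Mybph separated from Mybpc1 at the second step. Mybph minus Mybpc1 was 0.04 ± 0.68 at E12.5 and 0.05 ± 0.23 at E11.5 (change -0.01, exact adjusted p = 0.982). It then fell by 3.38 on the log2 scale (exact permutation, adjusted p = 0.000622), with values of -3.64 to -2.83 at E16.5 and of -1.47 to 0.85 at E12.5. Mybpc2 minus Mybpc1 changed by -0.67 at the first step (exact adjusted p = 0.0508) and by -0.39 at the second (exact adjusted p = 0.564). The first passed without E11.5 replicate 1 (-0.76, exact adjusted p = 0.0233), E12.5 replicate 2 (-0.80, 0.0117) or E12.5 replicate 4 (-0.77, 0.0314). Mybpc2 was near background in the folds, so the size of this difference is not settled there. Its E16.5 values lay in separate ranges, -1.74 to -1.27 in replicates 1 to 4 and -4.46 to -3.34 in replicates 5 to 8. Without replicates 1 to 4 the second change was -1.52 (exact adjusted p = 0.0202) and without replicates 5 to 8 it was 0.74 (exact adjusted p = 0.156). The sign of the estimate thus turned with the set of E16.5 arrays, but the 0.74 did not pass the threshold. With Mybpc2 below the background level in 7 of 8 E12.5 arrays, neither the size nor the sign of the change is settled.

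**Figure D3:**
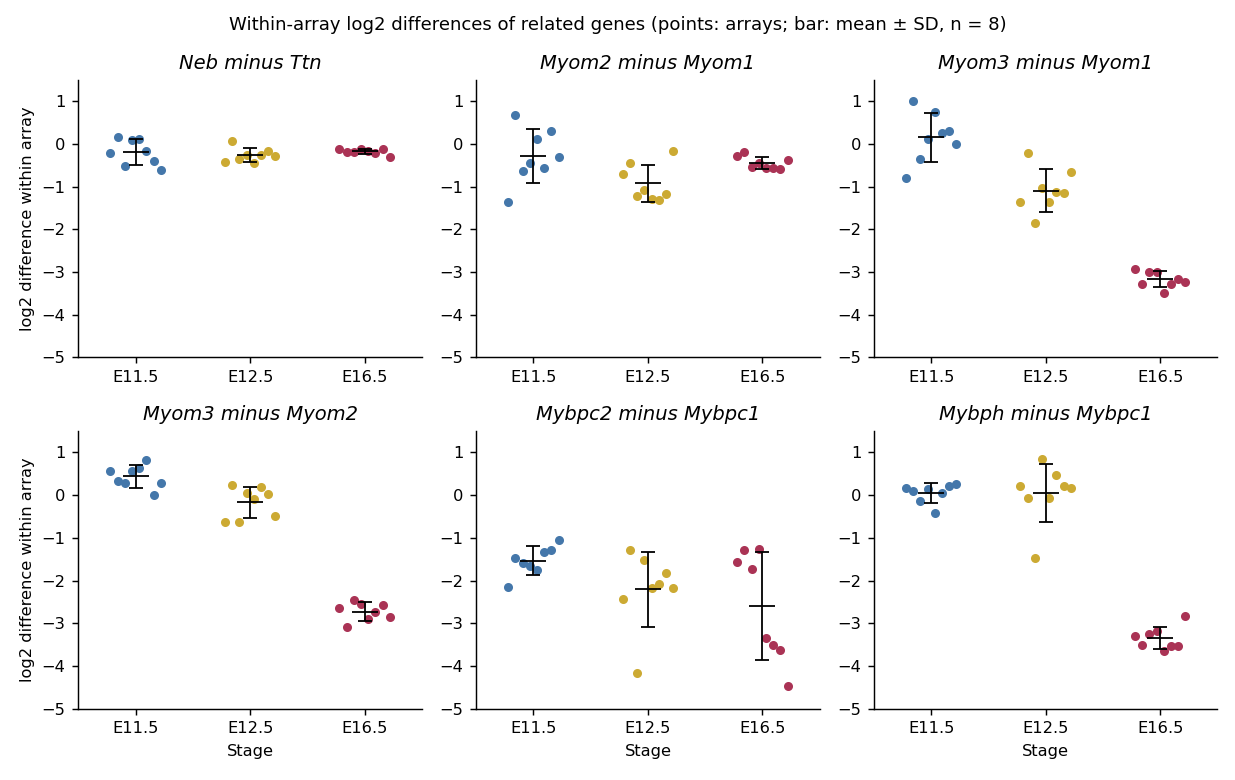
Within-array log2 difference (y axis) between related genes at E11.5, E12.5 and E16.5 (x axis); points are arrays in the order of their replicate number, bars the mean ± SD of 8 arrays. Neb minus Ttn moves by -0.07 and then 0.09, Myom3 falls against both other myomesins, Mybph falls against Mybpc1 at E16.5, and Mybpc2 minus Mybpc1 splits into ranges of -1.74 to -1.27 and -4.46 to -3.34 at E16.5.

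The E16.5 arrays were not uniform for these genes, along a division for which the labels give no reason. Mybpc2 showed it most. Replicates 1 to 4 had Mybpc2 values of 11.11 to 11.73, and replicates 5 to 8 had values of 7.95 to 9.42, a difference of the means of 2.53. The corresponding difference was 0.72 for Myom3, 0.63 for Myom2, 0.48 for Myom1, 0.34 for Mybph, 0.27 for Neb, 0.26 for Mybpc1 and 0.23 for Ttn. Replicates 1 to 4 were higher without overlap for 6 of the 8 genes, as they were for 6.43% of all genes; Mybpc1 and Mybph overlapped. The division was seen in these arrays and has no test. The mean of the 14 skeletal muscle markers was 10.77 to 10.92 in replicates 1 to 4 and 10.44 to 10.65 in replicates 5 to 8. That of 7 red blood cell markers was 7.56 to 8.22 in replicates 1 to 4 and 8.37 to 9.05 in replicates 5 to 8. The part of these in the values of the 8 genes was not tested. Replicate 8 had the lowest value of its stage for 7 of the 8 genes.

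In the folds the same arrays were highest or lowest for most of the 8 genes. E12.5 replicate 3 was the highest array of its stage for all 8 and E12.5 replicate 2 the lowest for 7, and E11.5 replicate 1 was the highest for 6. The muscle marker mean was 9.92 in E12.5 replicate 3, 8.0 in replicate 2 and 8.67 to 8.92 in the others of that stage. E12.5 replicate 2 also had the highest mean of 14 hepatocyte markers, 11.78, against 7.73 to 10.08 in the other E12.5 arrays and 6.85 to 7.09 at E11.5; its part in the values was not tested. With both E12.5 replicates 2 and 3 left out, the first-day changes were 1.52 for Ttn, 1.41 for Neb and 1.33 for Myom1 (adjusted p of 0.000411, 0.00281 and 0.00257 in limma). Mybph then passed too, at 0.73 (adjusted p = 0.0326). Mybpc1 had 0.47 and did not pass.

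**Figure D4:**
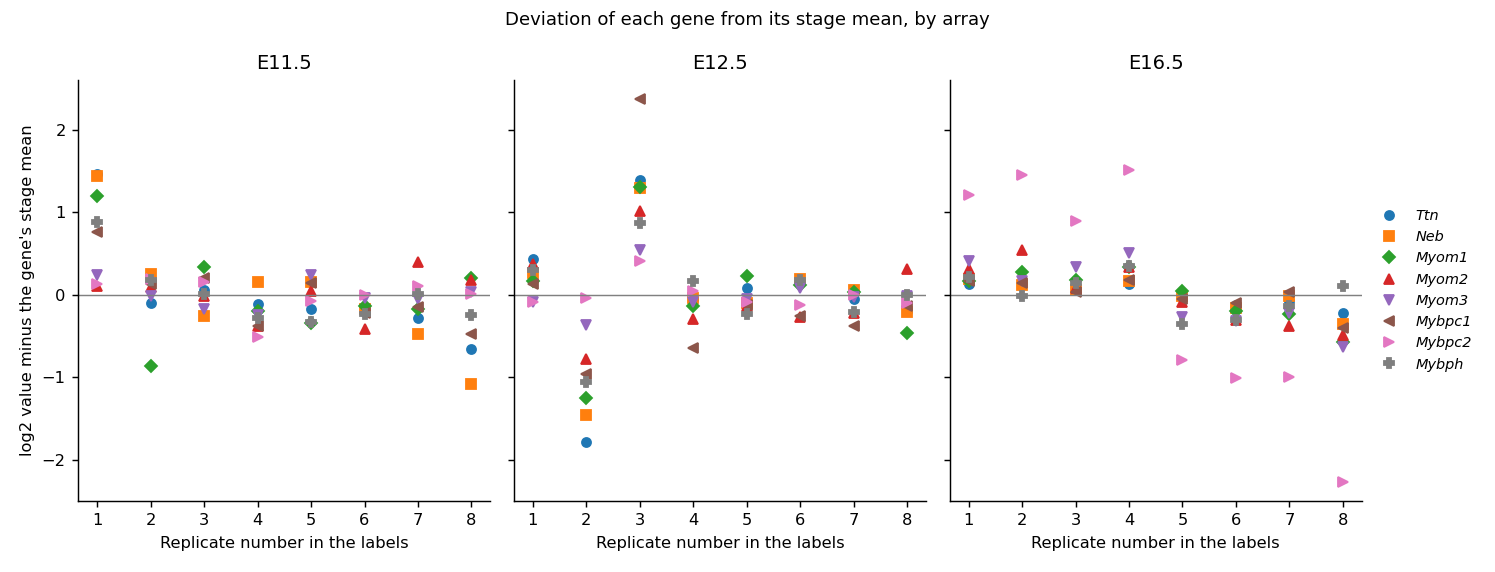
Log2 value of each gene minus its stage mean (y axis) by replicate number (x axis) in each stage; each symbol is 1 of the 8 genes. E12.5 replicate 3 is the highest array of its stage for all 8 genes and replicate 2 the lowest for 7, and at E16.5 Mybpc2 spreads more widely than the other 7.

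Pearson correlations over the 24 arrays were taken with all non-member genes, unnamed gene models left out. They gave the 3 genes whose log2 values followed each member most closely. For Ttn they were Actn2, Myh3 and Tnnc2 (Pearson r = 0.99 each, over 24 arrays), which encode a Z-disc actinin, embryonic myosin and fast troponin C. After the stage means were taken out, Myh3 was still first (r = 0.97). Among the non-members, Neb was closest to Tnnc2, Hrc and Casq2 (0.99 each) and, within stages, to the fast light chain Mylpf (0.92). Myom1 followed Myh7, the slow myosin, Lmo7 and Hrc (0.98 each), and within stages Meg3, an imprinted non-coding RNA, came first (0.86). Myom2 followed Nrap, Cox6a2 and Myf6 (0.99 each), with Cox6a2 first within stages (0.85). Myom3 was closest to Mypn, which encodes the Z-disc protein myopalladin (0.99, and 0.91 within stages). Mybpc1 was closest to Ampd1, Myh8, the perinatal myosin, and Dmd (0.99 each), with Myh8 first within stages (0.96). Mybpc2 followed Slc9a2, Eef1a2 and Coq8a (0.99 each), and within stages Rpl3l (0.97), and Mybph followed Myl4, Actc1 and Mef2c (0.95 each), with Tnnc2 first within stages (0.91). These genes were picked as the highest among the named non-members, the arrays share 3 stages, and the E16.5 arrays spread widely for Mybpc2, so the values are descriptions. Among each other within stages, r was 0.95 for Ttn with Neb, 0.89 for Ttn with Mybph and 0.82 for Mybpc2 with Myom3, and 0.19 for Mybpc2 with Ttn.

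Partners of these proteins were put on lists by function, and their counts stand against 0.331% of all genes called higher at E12.5 against E11.5 and 11.49% at E16.5 against E12.5. Of 22 measured partners of titin and the M-band, 1 rose at E12.5 against E11.5 and 0 fell in the limma fit. It was Cryab, a small heat shock protein that binds titin (1.15 ± 0.25, adjusted p = 0.0370). At E16.5 against E12.5, 21 rose and 0 fell, with a median of 1.51 against -0.02 over all genes. The largest rises were in Myot, a Z-disc protein (3.97 ± 0.40), Ckm, the M-band creatine kinase (3.77 ± 0.24), Ldb3, a Z-disc adaptor (3.54 ± 0.21), and Fhl1, a LIM protein (3.47 ± 0.17). Tcap, which joins the ends of titin at the Z-disc, rose by 2.93 ± 0.28, and Obsl1, a linker of titin and myomesin, by 0.26 ± 0.09. The splicing factor Rbm20, which shapes titin isoforms in the heart, rose by 0.47 ± 0.11. Among ubiquitin ligases, Trim54 rose by 1.65 ± 0.16, Trim55 by 2.19 ± 0.23 and Trim63, which binds titin near the M-band, by 1.57 ± 0.14.

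Of 16 genes of the nebulin family and of thin filament length, 2 rose at E12.5 against E11.5, Actn2 (2.12 ± 0.37) and the cardiac actin Actc1 (1.07 ± 0.21), with 0 lower. At E16.5 against E12.5, 15 rose and 0 fell (median 2.68). Lmod2, a leiomodin that lengthens thin filaments, rose most (4.42 ± 0.21), followed by Tmod4, which caps their pointed ends (4.02 ± 0.28), skeletal actin Acta1 (3.55 ± 0.38) and Nrap, a nebulin relative of assembling myofibrils (3.27 ± 0.18). Nebl, the cardiac nebulin relative, was the 1 that did not pass (0.06 ± 0.10). Its means of 6.72 at E16.5 and 6.66 at E12.5 lay close to the background level, so a change could have been missed. Klhl40 and Klhl41, which stabilise nebulin, rose by 2.44 ± 0.20 and 2.95 ± 0.36.

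Of 14 genes of the thick filament and other myosin-binding proteins, Myh3 (1.59 ± 0.36, adjusted p = 0.0469) and Mylpf (1.89 ± 0.35, adjusted p = 0.0142) rose at E12.5 against E11.5 in limma, and 0 fell. At E16.5 against E12.5, 12 rose and 0 fell (median 2.56), led by Myl2 (4.94 ± 0.56), Myh8 (4.31 ± 0.43), Myl1 (4.19 ± 0.33) and Myl3 (4.14 ± 0.28). The 2 that did not pass were the heart's own relatives of the members, Mybpc3 (0.17 ± 0.09, with means of 7.49 at E16.5 and 7.32 at E12.5) and Mybphl (0.00 ± 0.10). The Mybphl means of 6.85 at both stages lay little above the background level. Titin and Myom1 are also heart genes, as is Myom2 in the adult. Of 11 cardiomyocyte markers, 1 rose at E16.5 against E12.5, the atrial myosin Myh6 (0.71 ± 0.12), and 0 fell, with a median of -0.01. At E16.5 against E11.5, 1 rose, Myh6 (0.78 ± 0.12), against 13.85% of all genes. In that comparison 3 fell, against 19.63% of all genes: Myl7 (-1.15 ± 0.24), Nppb (-0.37 ± 0.09) and Corin (-0.27 ± 0.10). Their mean per array was 7.27 to 7.99 at E16.5, 7.28 to 7.74 at E12.5 and 7.19 to 7.59 at E11.5. The 7.99 belongs to E16.5 replicate 8, the lowest array of its stage for 7 of the 8 members, and the other E16.5 arrays lay at 7.27 to 7.40. Without that array 8 of 8 members were still called higher at E16.5 against either fold stage. The part of heart tissue in the values of the 8 genes was not tested. Of 6 smooth muscle markers, Acta2 rose at E12.5 against E11.5 (0.77 ± 0.16), and Smtn (0.61 ± 0.14) and Myh11 (0.22 ± 0.07) rose at E16.5 against E12.5 and 0 fell.

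Of the 14 skeletal muscle markers, 1 rose at E12.5 against E11.5, the myogenic regulator Myod1 (0.74 ± 0.16), and 0 fell. At E16.5 against E12.5, 10 rose, led by Myf6 (4.33 ± 0.22), another such regulator, and 1 fell, Myod1 (-0.52 ± 0.16). Markers of other tissues also moved between the stages. Of 14 hepatocyte markers, 6 rose at E12.5 against E11.5 and 13 at E16.5 against E12.5 in limma, with 0 lower in either. Their lowest mean per array at E16.5 was 9.42 and the median 11.16. Of 8 markers of fold mesenchyme, 0 were called at E12.5 against E11.5, and at E16.5 against E12.5 1 rose (Prrx1, 0.95 ± 0.21) and 6 fell, among them Wt1 (-1.44 ± 0.13) and Pdgfra (-1.59 ± 0.12). Of 7 red blood cell markers 0 were called at E12.5 against E11.5, and the embryonic globins Hba-x, Hbb-y and Hbb-bh1 fell at E16.5 against E12.5 with 0 higher. Their part in the changes of the 8 genes was not tested.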

How the data were processed

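RNA of 24 laser-captured samples, 8 per stage, was measured on 1 array each, and groups were taken from the labels. What the authors deposited is 1 log2 intensity for each probe set and array. Per the submitters' processing notes, Affymetrix Expression Console 1.1, RMA and R 2.9.2 were used, without stated roles; RMA subtracts background, quantile-normalizes arrays and summarises probes by median polish. The log2 scale is taken from their span of 2.56 to 14.1. Whether all arrays were normalized together is not given in the sources used here. Arrays have no read depth, so their number limits the precision.

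The platform annotation gave 1 gene symbol to 20760 of 24200 probe sets; 1140 with several and 2300 with none were left out. The probe set with the highest mean was kept, which gave 19351 genes. limma 3.58.1 in R 4.3.3 was fitted to all genes and 24 arrays (lmFit, eBayes, 1 coefficient per stage, no covariates, two-sided, Benjamini-Hochberg adjustment, threshold 0.05). It was tested on simulated data. The contrast of the second with the first step was added after the data were seen. Within-array differences were tested by exact permutation in Python 3.11.15 with numpy 2.4.6. Members and lists were chosen with earlier results of these data known. Named genes are all 8 members and the 3 non-members of highest correlation with each, unnamed gene models left out. Up to 4 called genes of a list with the largest change are also named, with further list genes where a sentence on a member turns on them. Start-site windows are RefSeq's, GRCm38.p6.

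Alternatives were fits restricted to 2 stages or with the replicate number as a block, 3 other scalings, a filter on the dimmest 25% of genes, the mean over probe sets, array weights, eBayes with its trend and robust settings, a test without moderation or equal variances, and leaving out arrays. Same-numbered arrays of different stages did not deviate together (correlations of deviations from stage means of -0.281 to 0.0927), so the numbers were not taken to pair samples.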

Additional observations from a re-analysis of the deposited data

Results flagged for a closer look

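In 5 of 24 groups of 8 arrays (8 genes by 3 stages), 1 array stood apart from the others by more than Dixon's critical value. Chance gives about 1 in 20 groups where values within a group are normally distributed. The groups are not independent, because the 8 genes share arrays and several varied together, so the count of 5 has no test. E11.5 replicate 1 was high for Ttn, at 10.62 against 8.50 to 9.22 in the other E11.5 arrays, and for Mybph, at 8.94 against 7.73 to 8.24. E12.5 replicate 3 was high for Mybpc1, at 11.09 against 7.76 to 8.84 in the other E12.5 arrays, and for Mybpc2, at 6.92 against 6.38 to 6.55. E11.5 replicate 4 was low for Mybpc2, at 5.97 against 6.40 to 6.67. Mybpc2 lay below the background level in 5 of 8 arrays at E11.5 and in 7 of 8 at E12.5, so its flags rest on signal at or near that level. The mean of the skeletal muscle markers was 8.46 in E11.5 replicate 1, the highest of its stage, 9.92 in E12.5 replicate 3, the highest of its stage, and 7.94 in E11.5 replicate 4, the lowest of its stage.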

How the results depend on the processing

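The calls at E16.5 held: 8 of 8 members were higher against E11.5 under every alternative run, and against E12.5 under all but 1, which gave 7 without E16.5 replicates 1 to 4, where Mybph did not pass. The first-day count of 3 fell to 0 with only the stages compared, with the unmoderated unequal-variance test and without E16.5 replicates 1 to 4 or 5 to 8; it was 4 without E12.5 replicates 2 and 3, and without single arrays it ran from 0 to 5. It stayed at 3 with the replicate block, after quantile normalization again, with arrays centred on the median or the 75th percentile, without the dimmest genes, over mean probe sets, with eBayes trend and with array weights. The replicate block changed no call of a member. The count of 5 genes with a larger second step ran from 5 to 7 without single arrays. Signs near 0 turned: the first-day change of Mybpc2 was -0.04 with 75th-percentile centring, -0.01 with array weights, -0.03 without E12.5 replicates 2 and 3, and -0.04 to 0.06 without single arrays. The step contrast of Mybph was -0.02 with array weights, -0.05 without E12.5 replicates 2 and 3, -0.15 without E16.5 replicates 1 to 4, and -0.28 to 0.27 without single arrays.

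For within-array differences at the first step, leaving out E12.5 replicates 2 and 3 gave -0.50 for Mybpc2 minus Mybpc1 (exact adjusted p = 0.0280) and 0.26 for Mybph minus Mybpc1 (0.109). At the second it gave 0.13 for Neb minus Ttn (0.0240). Myom2 minus Myom1 at the second step was 0.40 without E16.5 replicates 1 to 4 (exact adjusted p = 0.154) and 0.56 without 5 to 8 (0.0576), and Mybpc2 minus Mybpc1 was -1.52 and 0.74. Without single arrays, the first-step ranges were -0.80 to -0.51 for Myom2 minus Myom1, -0.80 to -0.39 for Mybpc2 minus Mybpc1 and -0.12 to 0.21 for Mybph minus Mybpc1. The second-step ranges were 0.06 to 0.14 for Neb minus Ttn and 0.42 to 0.59 for Myom2 minus Myom1. The cause was not tested, beyond fewer arrays in the fits that leave some out. Signal near background limits Mybpc2 in the folds.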
